A study of Mus musculus with 474 samples.

Results

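The Slc25 family encodes the mitochondrial carriers. Most of them are proteins of the inner mitochondrial membrane that move nucleotides, phosphate, carboxylates, amino acids, acylcarnitines and cofactors between the matrix and the cytosol. The members were every row of the deposited muscle tables whose gene symbol is Slc25a followed by a number alone, which gave 45 of 20612 genes. All 45 are annotated as protein-coding, and they lie on 19 chromosomes, with 4 of them on the X chromosome. Of the 45, 44 passed the filter on low counts and were tested among 18823 genes, and Slc25a41 was removed by it.

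The libraries come from skeletal muscle, named as gastrocnemius in the study's methods, of Diversity Outbred mice, a stock that descends from 8 inbred strains and is kept outbred, so that each animal has a genome of its own. Every animal was given a high-fat, high-sugar diet labelled 45% fat, was 22 weeks old at harvest according to the methods, and gave 1 library of polyadenylated RNA. Libraries labelled female and male were near equal in number and divided over the numbers 17, 18, 19, 21 and 23 in the sample titles, which are read here as outbred generations. That reading is an assumption, since the study's methods name only generations 18, 19 and 21 for its animals, and what 17 and 23 stand for was not settled. The 10 groups of sex and generation held 45 to 50 animals each, none of them on another diet or of an inbred strain.

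Carriers work in sets. The ADP/ATP carriers Slc25a4 and Slc25a5 export the ATP made in the matrix, and the phosphate carrier Slc25a3 brings in the phosphate for it. Slc25a12 and Slc25a13 exchange aspartate for glutamate and Slc25a11 exchanges oxoglutarate for malate, and together these form the malate-aspartate shuttle that carries reducing equivalents from glycolysis into mitochondria. Slc25a20 admits acylcarnitines for fatty acid oxidation. Slc25a1 exports citrate, the carbon source of cytosolic fatty acid synthesis, and Slc25a10 exchanges dicarboxylates. The other groups used here were carriers of ATP-Mg and phosphate, of glutamate and other amino acids, of nucleotides and cofactors, of glutathione and of iron, and the relatives of the uncoupling proteins. A role was assigned to 37 members and none to the other 8. For Slc25a14, Slc25a27 and Slc25a30 the role is kinship with the uncoupling proteins and not a transported substrate.

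The total expected count per library was 35.9 to 165.7 in units of 1000000 counts, with a mean of 81.5 ± 16.2 (SD over all libraries). In 5 libraries, 3 labelled female and 2 labelled male, RNA of sex-linked genes went against the label. They were kept, and the sex differences of the members named below kept their calls without them. Markers of the labelled tissue were abundant, since 12 fast-fibre genes summed to 111504 to 208420 CPM (counts per 1000000 of the scaled library total) over all libraries. Markers of adipocytes summed to 373.03 to 2415 CPM, and no gene of the adipocyte list was at 0 in any library. In bulk muscle, fewer cells of a type and less RNA per cell cannot be told apart.

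The sequence before the start of 4 members is shown first, because these members carry the sex, fat-oxidation and clock results that follow. The RefSeq promoter table for GRCm38.p6 held windows for 34 of the 45 members, and the bases before the start were searched on both strands for 5 motifs. The windows printed here are all on the minus strand and read 5′ to 3′ towards the start. Matches of GGGCGG and TATAAA are left in lower case. Slc25a30 has the window chr14:75787038-75787287, with a match of GGGCGG and none of the motifs that are capitalised. Slc25a34 has chr4:141623835-141624084, with the reverse complement of AAGGTCA in capitals. Slc25a25 has chr2:32424067-32424316, before 1 of its 3 listed starts, with TGACGTCA in capitals. Slc25a36 has chr9:97111158-97111291, the part of the window outside any annotated exon, with CACGTG and TGACGTCA in capitals.
Slc25a30: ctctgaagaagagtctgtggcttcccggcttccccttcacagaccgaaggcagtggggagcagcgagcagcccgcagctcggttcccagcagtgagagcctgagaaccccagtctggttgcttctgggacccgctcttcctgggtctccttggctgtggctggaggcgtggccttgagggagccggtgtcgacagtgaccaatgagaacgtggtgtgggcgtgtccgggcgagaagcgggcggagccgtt
Slc25a34: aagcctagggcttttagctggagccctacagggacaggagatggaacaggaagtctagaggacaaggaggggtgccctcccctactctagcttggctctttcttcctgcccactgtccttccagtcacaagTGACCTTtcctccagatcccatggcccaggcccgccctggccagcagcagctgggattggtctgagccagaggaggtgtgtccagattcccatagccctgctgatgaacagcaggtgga
Slc25a25: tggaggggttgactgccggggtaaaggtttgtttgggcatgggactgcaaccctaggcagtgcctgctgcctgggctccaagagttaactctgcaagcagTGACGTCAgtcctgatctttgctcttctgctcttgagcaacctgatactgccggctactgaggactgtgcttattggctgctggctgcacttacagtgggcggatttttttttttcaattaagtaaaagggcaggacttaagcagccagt
Slc25a36: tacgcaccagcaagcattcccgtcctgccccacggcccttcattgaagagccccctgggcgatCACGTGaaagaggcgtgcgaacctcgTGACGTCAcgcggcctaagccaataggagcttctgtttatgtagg
The letters AAGGTCA occurred in 4.08% of 32817 promoter windows of all genes, and among the members in that of Slc25a34 alone. TGACGTCA occurred in 1.55% of all windows and, among the members, in those of Slc25a25 and Slc25a36. CACGTG occurred in 6.02% of all windows and in 7 of the 44 windows of members. These 7 belong to Slc25a1, Slc25a13, Slc25a14, Slc25a15, Slc25a33 and Slc25a36. GGGCGG occurred in 32.7% of all windows and in 31 of the 44 windows of members, from 24 of the 34 members. TATAAA occurred in 12.4% of all windows and in 2 of the 44 windows, from 2 members. These are matches of letters, and no binding was measured.

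Levels within the family differed by several orders of magnitude, and 1 member stood far above the others. On the scale of CPM per kilobase of exon, which allows genes to be compared, Slc25a4, the heart and muscle form of the ADP/ATP carrier, had a level of 979.9 ± 94.3 (SD over all animals). Its level per kilobase was 49.5 times that of its sister gene Slc25a5, at 19.8 ± 2.86. Slc25a4 alone made up 69.2% ± 1.66 of the summed level per kilobase of the 45 members (range over animals 62.8% to 73.2%). All 45 together took 0.438% ± 0.0336 of the scaled library total, with a lowest share of 0.313% and a highest of 0.553%.

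**Figure D1:**
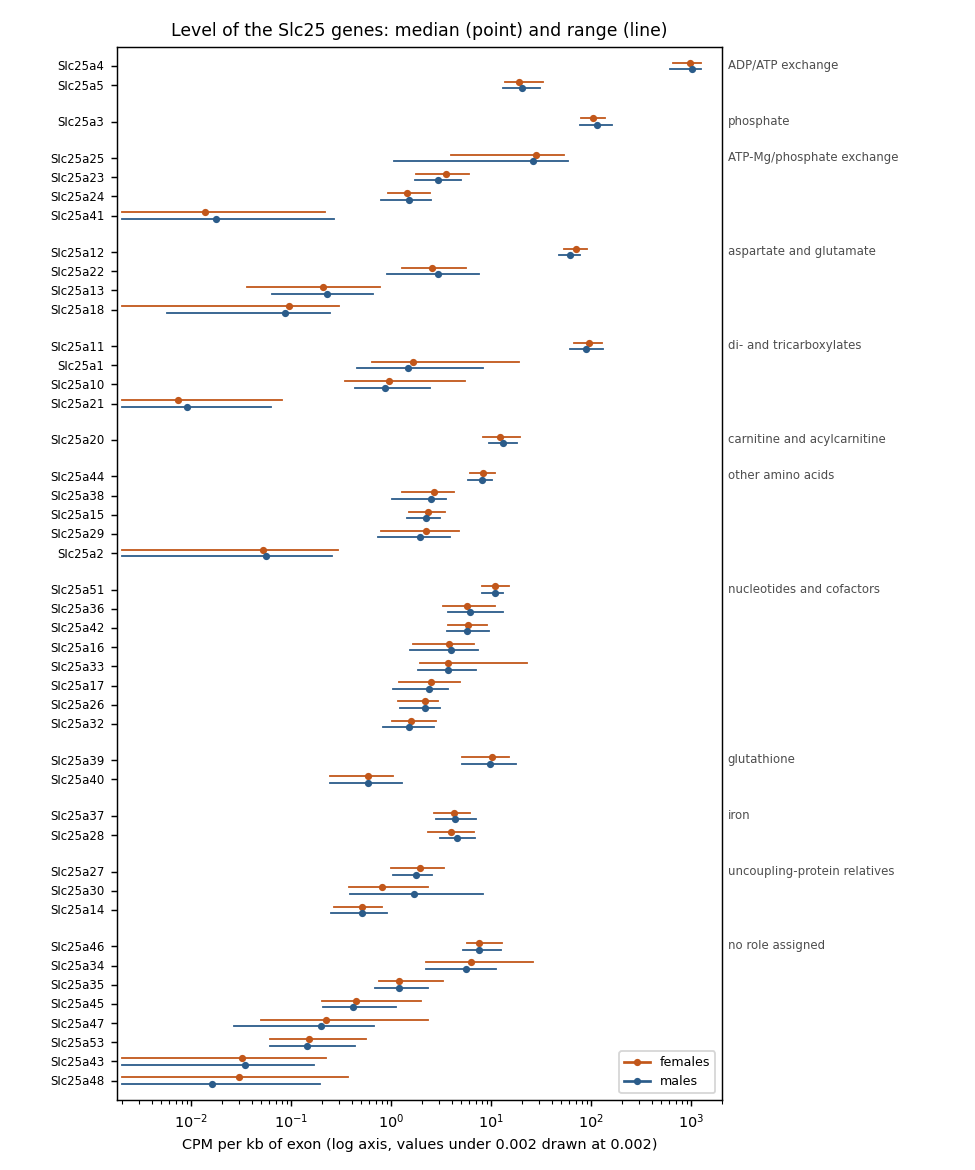
Level of the Slc25 genes in CPM per kilobase of exon on a log axis, grouped by role. Points are medians and lines run from the lowest to the highest animal, for females and males apart. Slc25a4 stands alone near 1000, and 9 members have a mean above 10.

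The next carriers in order were also those of ATP supply and of the malate-aspartate shuttle. Slc25a3 had a level of 108.6 ± 12.3 CPM per kilobase, Slc25a11 of 92.2 ± 11.4 and Slc25a12 of 65.2 ± 7.83. Neighbours in this order overlapped in their ranges over animals, except for Slc25a4, whose lowest animal lay above the highest of every other member. Slc25a13, the second aspartate-glutamate carrier, was at 0.228 ± 0.09997, far below Slc25a12.

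Slc25a25, an ATP-Mg/phosphate carrier, followed at 26.996 ± 11.3, then Slc25a5 at the level given above, Slc25a20 at 12.9 ± 1.82, Slc25a51, the NAD carrier, at 10.8 ± 0.957, and Slc25a39, a glutathione carrier, at 10.04 ± 1.86. At the other end, 6 members were under 0.1 CPM per kilobase. Among these 6, Slc25a41 was listed at 0 in 39.9% of the libraries and Slc25a21 in 27.2%, Slc25a48 in 62 libraries, Slc25a43 in 47, Slc25a2 in 44 and Slc25a18 in 2. At this depth a value of 0 does not show that the gene was silent.

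Animal-to-animal variation spanned 8.85% to 117% of the mean among the tested members. The coefficient of variation (CV, the SD over all animals divided by the mean) had a median of 22.1% over the 44 tested members and of 27.7% over all genes tested. It was lowest in Slc25a51 and Slc25a44, a carrier of branched-chain amino acids, both at 8.85%, followed by Slc25a4 at 9.63%, Slc25a3 at 11.3% and Slc25a12 at 12%. It was highest in Slc25a48 at 117%, Slc25a21 at 109.1%, Slc25a1 at 91.1%, Slc25a30 at 82.2% and Slc25a43 at 80.9%. Slc25a48, Slc25a21 and Slc25a43 were at 0 in some libraries, as given above, whereas the lowest animal had 0.985 CPM of Slc25a1 and 1.71 CPM of Slc25a30. Slc25a1 differed 41.7-fold between the lowest and the highest animal.

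Males and females differed in 27 of the 44 members at an adjusted p under 0.05 (edgeR quasi-likelihood test with generation as covariate, Benjamini-Hochberg over all genes tested). Of these, 9 were higher and 18 lower in males. Among all genes tested, 24.4% were higher and 30.6% lower in males, so that differences were common throughout the transcriptome. The median log2 difference, male minus female, was -0.04 over the members and -0.01 over all genes. Most differences were small, since 14 of the 27 were under 1.1-fold and only Slc25a30 and Slc25a48 exceeded 1.5-fold. The median absolute log2 difference was 0.13 over the called members and 0.15 over all called genes. Of the 27, 26 kept 1 sign in each of the 5 generations, with Slc25a45 as the exception, and 23 did so in each of the 5 blocks of library numbers. Scaling by total count alone, which moved the median of all genes to -0.05, gave 7 higher and 21 lower members. The shares of 24.4% and 30.6% belong to the main scaling, and none is set beside these counts.

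**Figure D2:**
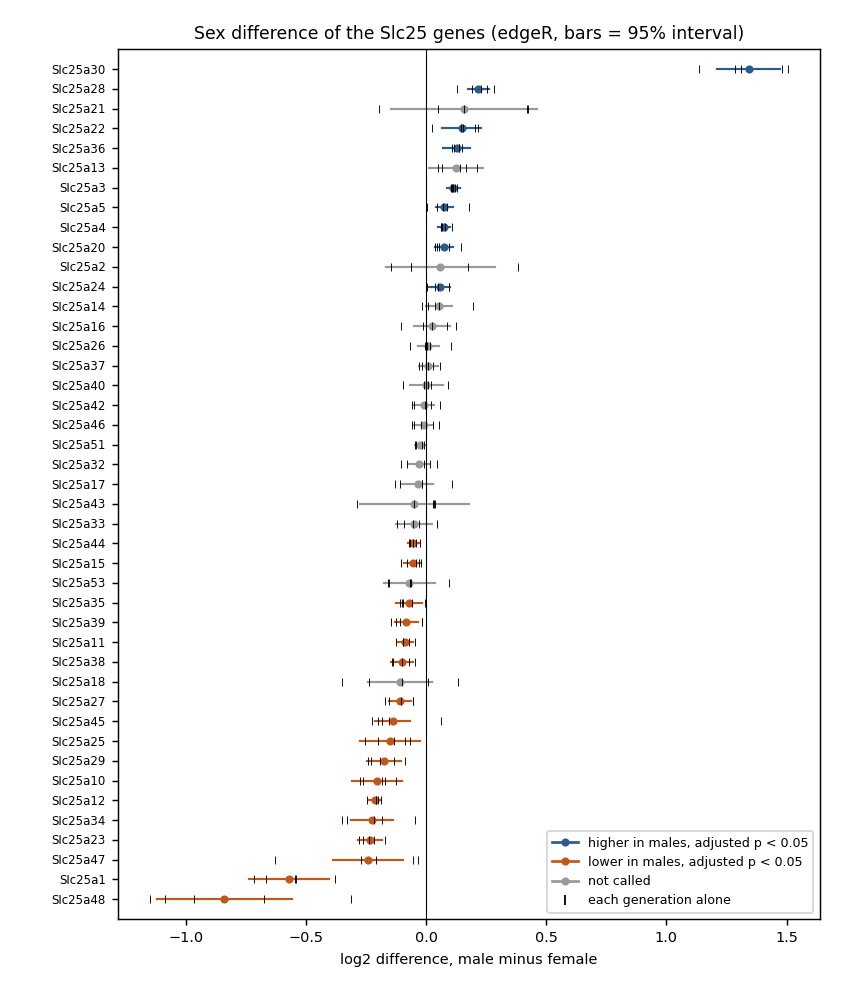
The log2 difference (male minus female) of the tested Slc25 genes with its 95% interval from edgeR; small ticks are the 5 generations fitted alone, and colours give the call. Slc25a30 lies at 1.34, far from the other members drawn, and Slc25a48 and Slc25a1 lie lowest.

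The difference followed roles only in part. Both ADP/ATP carriers, the phosphate carrier and the acylcarnitine carrier Slc25a20 were higher in males. Of the 4 di- and tricarboxylate carriers, 3 were lower (Slc25a1, Slc25a10 and Slc25a11) and Slc25a21 was not called. Of the 5 other amino acid carriers, 4 were lower and Slc25a2 was not called. Nucleotide and cofactor carriers were mostly not called (7 of 9), with Slc25a36 higher. Among the 8 members with no role assigned, 5 were lower and none higher.

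Slc25a30, also known as the kidney mitochondrial carrier and a relative of the uncoupling proteins, showed by far the widest gap between the sexes in the family. The gene lies at chr14:75760117-75787037 (GRCm38, minus strand), and its promoter window is the first of those printed above. In females the lowest, median and highest values were 1.71, 3.67 and 10.5 CPM, and in males 1.76, 7.67 and 37.4 CPM. The ranges overlapped at the low end, yet 76 males (31.8%) lay above the highest female, and 3 females (1.28%) lay above the male median. The log2 difference was 1.34 (SE 0.066, adjusted p = 5.35e-64, edgeR), or 2.53-fold.

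Male animals also varied more in Slc25a30 than female animals did. The CV within males was 67.5% and within females 33.5%, a difference that was not tested. The gap appeared in each generation, with male medians of 6.40 to 8.59 CPM and female medians of 3.43 to 3.84 CPM. Fitted alone, the generations gave log2 differences of 1.13 to 1.51 and the 5 blocks of library numbers 0.97 to 1.55. On the deposited variance-stabilised values the difference was 0.90, the lowest of the alternatives tried, on a scale that compresses low genes.

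**Figure D3:**
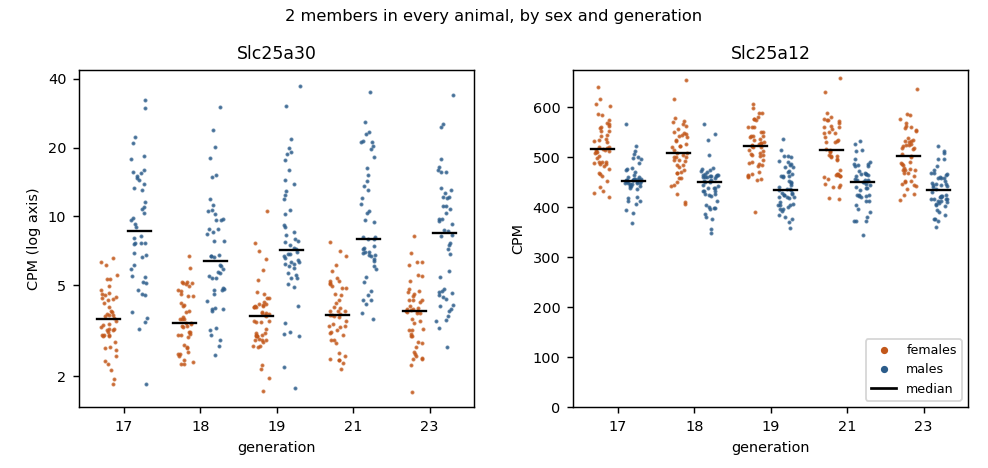
Slc25a30 (left, CPM on a log axis) and Slc25a12 (right, CPM from 0) in every animal, by generation; points are animals, orange females and blue males, and black lines are group medians. Male medians of Slc25a30 lie at 6.40 to 8.59 CPM and female medians at 3.43 to 3.84 CPM, while Slc25a12 is lower in males in each generation.

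The other members that were higher in males rose by little. Slc25a28, mitoferrin 2, which imports iron, had medians of 14.7 CPM in females and 17.04 CPM in males, with ranges of 8.61 to 25.1 and 11.5 to 25.9 CPM. Its log2 difference was 0.22 (SE 0.022, adjusted p = 2.5e-20). Its paralog Slc25a37, mitoferrin 1, did not pass the test (log2 difference 0.01, SE 0.021).

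Slc25a22, a glutamate carrier, differed by 0.15 on the log2 scale (SE 0.042, adjusted p = 0.00122) and ran from 7.59 over a median of 15.4 to 33.3 CPM in females and from 5.36 over 17.7 to 45.0 CPM in males. Slc25a36, a carrier of pyrimidine nucleotides, differed by 0.13 (SE 0.029, adjusted p = 3.13e-05), with ranges of 31.2 to 103.3 CPM in females and 35.6 to 124.3 CPM in males. Neither gene separated the sexes, since both ranges overlapped almost fully. With the slow-fibre, fast-fibre and adipocyte scores as covariates Slc25a36 was no longer called (0.07, adjusted p = 0.0536), and Slc25a22 differed by 0.28.

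The abundant carriers of ATP supply moved in the same direction by less. Slc25a3 rose from a median of 578.3 CPM in females (438.6 to 758.9) to 627.4 CPM in males (429.5 to 885.6), a log2 difference of 0.11 (SE 0.014, adjusted p = 1.34e-13). Slc25a4 rose from a median of 2262 CPM (1557 to 2921) to 2376 CPM (1452 to 2940), a difference of 0.07 (SE 0.013, adjusted p = 4.44e-08). Slc25a5 differed by 0.08 (SE 0.018, adjusted p = 0.000142) between medians of 30.8 and 33.1 CPM, with ranges of 22.6 to 54.4 and 21.7 to 50.3 CPM. All of these distributions overlapped, and with scaling by total count alone Slc25a5 was no longer called (0.04, adjusted p = 0.0873). Slc25a20 differed by 0.07 (SE 0.018, adjusted p = 0.000173), between 59.7 CPM in females (39.7 to 93.8) and 63.6 CPM in males (45.5 to 87.5). With scaling by total count alone Slc25a4 and Slc25a20 both differed by 0.04 and were still called.

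Among the members lower in males, Slc25a12 had the lowest adjusted p. It lies at chr2:71271063-71367749 (minus strand) and encodes the aspartate-glutamate carrier of muscle and brain. Its values ran from 389.5 over a median of 514.8 to 658.2 CPM in females and from 344.6 over 447.2 to 567.2 CPM in males, so that no male reached the highest female. The log2 difference was -0.21 (SE 0.013, adjusted p = 2.86e-48), and it lay between -0.24 and -0.19 in each generation. Slc25a11, a further carrier of the malate-aspartate shuttle, was lower by -0.09 on the log2 scale (SE 0.016, adjusted p = 3.35e-07), between medians of 200.3 CPM (140.6 to 273.3) and 188.5 CPM (129.9 to 278.1). Slc25a13, the second aspartate-glutamate carrier, had a log2 difference of 0.12 (SE 0.058) and did not pass the test (adjusted p = 0.0582). Slc25a11 shares exon bases with Rnf167 on the opposite strand, and its value is uncertain to that extent.

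Slc25a1 and Slc25a48 fell furthest. Slc25a1, the citrate carrier, had a median of 3.54 CPM in females and 3.18 CPM in males, and the gap lay in the upper tail, with a highest female at 41.1 CPM and a highest male at 17.7 CPM. Its log2 difference was -0.57 (SE 0.084, adjusted p = 2.89e-10). The summed adipocyte markers also differed by sex, with medians of 856.1 CPM in females and 678.7 CPM in males and overlapping ranges of 440.9 to 2415 and 373.03 to 1630 CPM, and 8 of the 9 were lower in males, Lep being higher. With the fibre and adipocyte scores as covariates the Slc25a1 difference was -0.0054 (adjusted p = 0.947), and on the variance-stabilised values it was -0.28.

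Slc25a48 had medians of only 0.0999 CPM in females and 0.0539 CPM in males, with highest values of 1.25 and 0.651 CPM. Its log2 difference of -0.84 (SE 0.14, adjusted p = 4.47e-08) became -0.32 (adjusted p = 0.0959) with the fibre and adipocyte scores, and it was -0.13 on the variance-stabilised values, which compress low genes. Slc25a47, another member with few counts, ran from 0.146 to 6.86 CPM in females and from 0.0792 to 2.00 CPM in males, with a log2 difference of -0.24 (SE 0.075, adjusted p = 0.00327). It too lost its call with those scores (-0.19, adjusted p = 0.0674), and was at -0.08 on the variance-stabilised values.

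The remaining named members kept their calls with the fibre and adipocyte scores in the fit. Slc25a23, a calcium-regulated ATP-Mg/phosphate carrier, had medians of 18.6 CPM in females (9.35 to 31.9) and 15.4 CPM in males (9.06 to 26.3), a log2 difference of -0.23 (SE 0.026, adjusted p = 3.01e-17). Slc25a34 had medians of 16.5 CPM (5.91 to 70.1) and 15.02 CPM (5.94 to 29.8), a difference of -0.22 (SE 0.044, adjusted p = 2.47e-06) that was -0.12 with those scores (adjusted p = 0.0353). Slc25a25 had medians of 221.4 CPM (30.8 to 413.6) and 206.9 CPM (8.39 to 455.8), a difference of -0.15 (SE 0.063, adjusted p = 0.0338), and of -0.24 on the variance-stabilised values. Slc25a23 and Slc25a25 both share exon bases with a gene on the opposite strand, and 12 members in all share exon bases with another gene in the table. Whether the counting used strand was not stated, so these values are uncertain.

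Genes that import carriers or work beside them were read from the same fit, in which 24.4% of all genes were higher and 30.6% lower in males. Of 13 genes for the import of carriers into the inner membrane, 2 were higher (Timm10 and Tomm20) and 6 lower in males, with a median log2 difference of -0.01. Of 15 other mitochondrial transporters, 8 were higher and 5 lower. The 3 porins Vdac1, Vdac2 and Vdac3 and the pyruvate carrier genes Mpc1 and Mpc2 were higher by 0.03 to 0.16 on the log2 scale, and 4 of 5 sideroflexins were lower. Scaling by total count alone left 4 of these transporters higher, and the shares of all genes given above are not those of that scaling. Of 5 carriers filed under other symbols, Ucp3 (0.18) and Mtch2 (0.03) were higher and Ucp1 (-3.79) and Ucp2 (-0.23) lower, while Mtch1 was not called. Mtch2 lost its call with scaling by total count alone (0.0015, adjusted p = 0.885). With the fibre and adipocyte scores as covariates Ucp2 lost its call (-0.06, adjusted p = 0.297) and Ucp1 was at -0.79 (adjusted p = 0.039).

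The test across the 5 generations (edgeR, sex as covariate) called 4 of 44 members, a share near the 7.56% of all genes tested. The span of the fitted levels over generations had a median of 0.08 on the log2 scale over the members and of 0.11 over all genes. The called members were Slc25a25, Slc25a10, Slc25a22 and Slc25a29, a carrier of basic amino acids.

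Slc25a25 rose from a median of 179.4 CPM in generation 17 (8.39 to 439.7) to 235.8 CPM in generation 21 (39.4 to 455.8), a range of 0.40 on the log2 scale (adjusted p = 0.0228). Slc25a22 was highest in generation 17, with a median of 18.6 CPM (5.86 to 45.0), and lowest in generation 19, with 15.4 CPM (7.79 to 33.6), a range of 0.27 (adjusted p = 0.00508). Slc25a29 went the other way, from 4.89 CPM in generation 17 (1.91 to 10.4) to 5.67 CPM in generation 21 (2.06 to 12.2), a range of 0.23 (adjusted p = 0.00495). These distributions overlapped across nearly their whole width. Markers moved with generation too, since 12 of the 14 immediate-early genes, on whose score Slc25a25 has one of its steepest slopes, were called between generations. Their summed level had a median of 369.8 CPM in generation 17 (195.4 to 713.8), 538.5 CPM in generation 21 (241.4 to 1335) and 654.5 CPM in generation 19 (194.8 to 2062). Of the erythroid genes 5 of 6, of the adipocyte genes 4 of 9, of the macrophage genes 4 of 10 and of the fat-oxidation genes 5 of 15 were called as well. The summed fat-oxidation genes, on whose score Slc25a22 has its steepest slope, had a median of 4742 CPM in generation 17 (3269 to 7585) and of 4067 CPM in generation 19 (2623 to 6879). The part of these markers in the members' generation differences was not tested. By its fitted level, Slc25a10 ran from generation 18, with a median of 2.97 CPM (1.55 to 10.99), to 3.76 CPM in generation 23 (1.41 to 9.23), with a range of 0.36 (adjusted p = 0.00331) that was not called with the fibre and adipocyte scores (0.17, adjusted p = 0.226) and was 0.23 on the variance-stabilised values. The summed lipogenesis genes, on whose score Slc25a10 has a steep slope, had a median of 898.5 CPM in generation 18 (442.1 to 4919) and of 1215 CPM in generation 23 (367.2 to 4213), and their part in this range was not tested.

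The sex difference of no member was found to depend on generation. The interaction test of edgeR called 0 of 44 members, beside 0.531% of all genes, and limma on the variance-stabilised values called 0 members and 0 genes. At an unadjusted p under 0.05 there was 1 member, Slc25a5 (adjusted p = 0.819), in edgeR, beside 1123 of the 18823 genes tested. In limma there was 1 member, beside 870 genes.

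The last number of each sample title, read here as a library number, went with 22 members, where generation went with 4. What the number stands for is not stated in the labels. The numbers form 2 stretches without a gap of more than 3, the first of 96 libraries and the second of all others, and 22 of 44 members differed between them (edgeR, sex and generation as covariates), beside 45.4% of all genes. With 5 blocks of at most 96 numbers, 22 members differed, beside 47.4% of all genes. The lowest adjusted p was that of Slc25a3 (3.19e-21), at 550.8 ± 66.8 CPM in the first stretch and 615.8 ± 61.9 CPM in the second. Slc25a39 was at 23.7 ± 5.03 and 28.7 ± 4.63 CPM, and Slc25a36 went the opposite way, at 66.99 ± 17.9 and 56.8 ± 11.2 CPM. These differences are of the size of the spread between animals or less.

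Members were next compared with what else varied between the muscles. For each of 10 gene lists a score was taken as the mean standardised level of its genes, and the slope of every gene on that score was fitted with limma on the variance-stabilised values, with sex and generation as covariates. No member is part of a score, and slopes are counted and ranked among called members. A slope is in units close to log2 per SD of the score for abundant genes, and it describes RNA levels that moved together in the same libraries. The variance-stabilised scale compresses low genes. The slope of Slc25a1 on the lipogenesis score was 0.59 on it and 0.78 on log2 CPM. Ranks of slopes among members of unlike level carry this limit. Scores were themselves related, with Pearson r = 0.745 between the adipocyte and lipogenesis scores over all libraries.

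**Figure D4:**
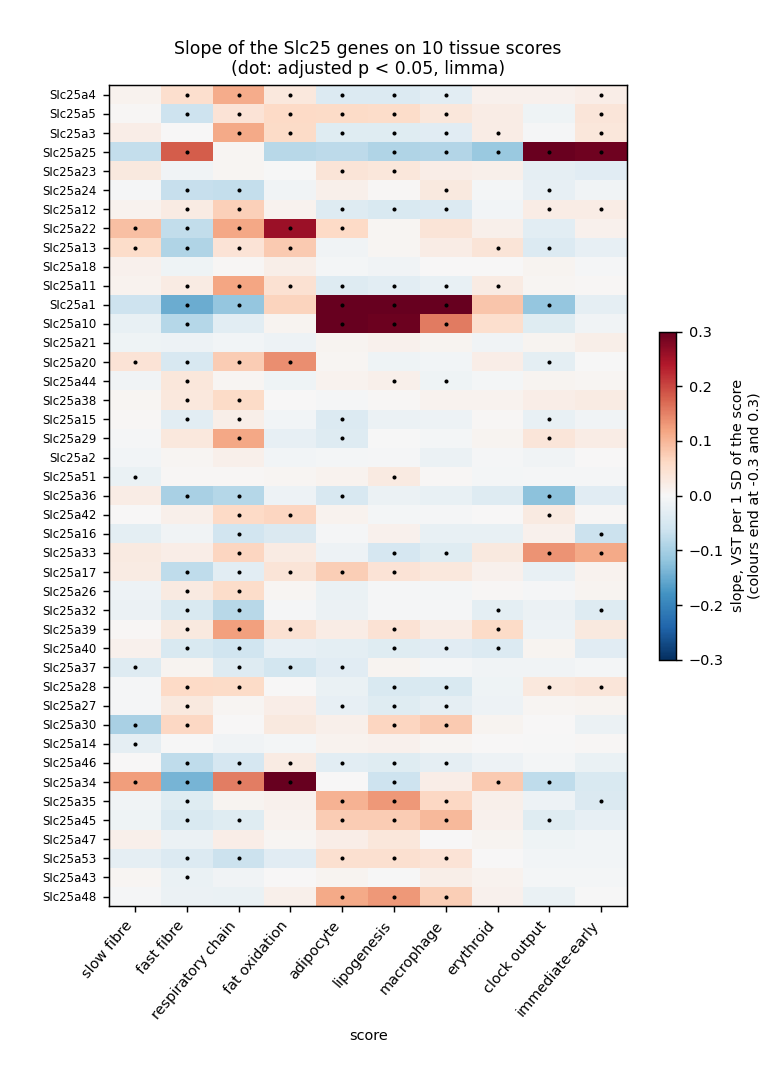
Slope of the tested Slc25 genes on 10 tissue scores (rows grouped by role, colour from -0.3 to 0.3 per SD of the score, dots for an adjusted p under 0.05 in limma). The darkest cells are Slc25a1 and Slc25a10 on the adipocyte and lipogenesis scores, Slc25a34 and Slc25a22 on the fat-oxidation score, and Slc25a25 on the clock and immediate-early scores.

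On the fat-oxidation score, built from 15 genes such as Pdk4, Angptl4, Cpt1b and Ucp3 that respond to fatty acids through PPAR receptors, 12 members had a positive and 2 a negative slope, beside 12.9% and 13.1% of all genes. Slc25a34 had a slope of 0.35 (SE 0.013, adjusted p = 1.68e-94), the steepest of all genes outside the score, and no other gene had a higher ratio of slope to error. Slc25a22 followed with 0.26 (SE 0.016, adjusted p = 1.86e-44) and Slc25a20 with 0.14 (SE 0.0066, adjusted p = 2.18e-67). The most negative slope among the called members was that of Slc25a37, at -0.06 (SE 0.0097, adjusted p = 6.22e-07), and -0.03 with all 10 scores in 1 fit. Over the alternatives tried, a single fit of all 10 scores included, the slope of Slc25a34 ran from 0.31 to 0.38.

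The level of Slc25a20 itself was then taken as the regressor. In that fit, 10 of the other 43 members had a positive and 1 a negative slope, beside 7.79% and 7.11% of all genes. Per unit of Slc25a20, Slc25a34 rose by 1.24 (SE 0.085, adjusted p = 1.51e-36) and Slc25a22 by 0.84 (SE 0.091, adjusted p = 2.11e-16). Slc25a37 had the single negative slope that was called, -0.19 (SE 0.050, adjusted p = 0.00327).

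**Figure D5:**
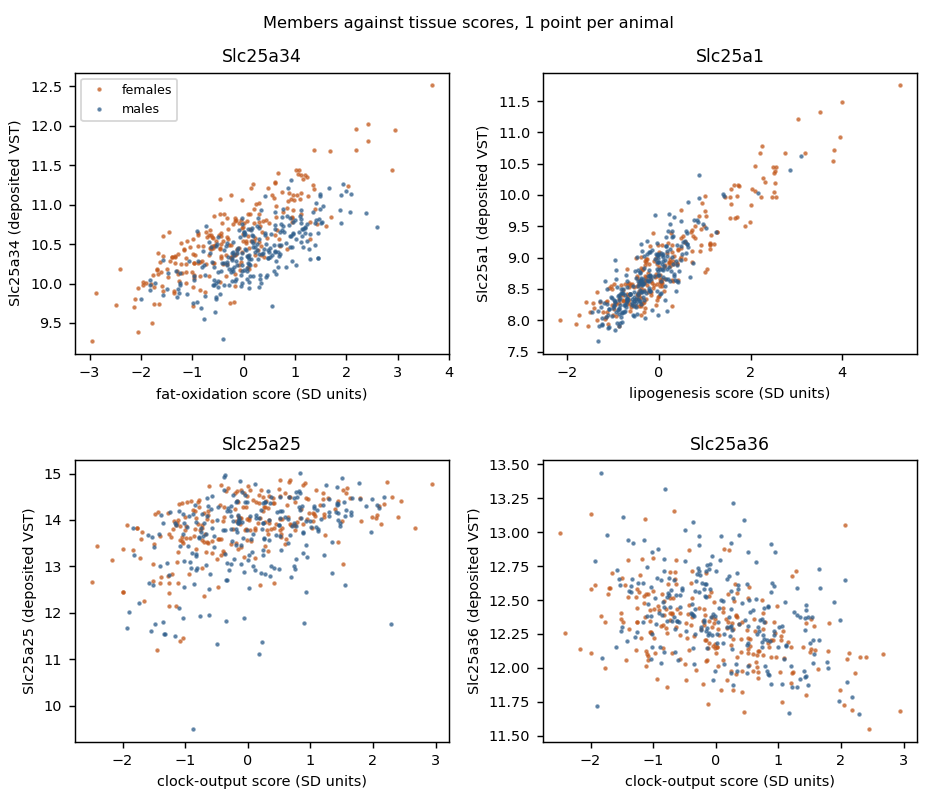
Deposited variance-stabilised level of 4 members (vertical axes, close to log2 for abundant genes) against a tissue score (horizontal axes, SD units), 1 point per animal, orange females and blue males. Slc25a34 rises with the fat-oxidation score and Slc25a1 with the lipogenesis score, while on the clock-output score Slc25a25 has a slope of 0.30 and Slc25a36 of -0.12.

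On the respiratory-chain score, built from 45 nuclear genes of complexes I to V, the carriers of ATP supply and of the malate-aspartate shuttle had positive slopes. In all, 18 members had a positive and 11 a negative slope, beside 23.6% and 32.2% of all genes. Slc25a4 had a slope of 0.11 (SE 0.0033, adjusted p = 6.31e-123), Slc25a3 of 0.11 (SE 0.0039, adjusted p = 4.45e-106) and Slc25a11 of 0.12 (SE 0.0054, adjusted p = 7.07e-71). The slopes of Slc25a12 (0.07, SE 0.0052), Slc25a5 (0.04, SE 0.0084) and Slc25a13 (0.04, SE 0.012) were positive as well. The steepest were Slc25a34 at 0.15 (SE 0.018) and Slc25a39 at 0.12 (SE 0.0097), but with all scores in 1 fit Slc25a34 had 0.035 (adjusted p = 0.0397) and Slc25a39 0.14. Slc25a1, at -0.12 (SE 0.029, adjusted p = 0.000174), and Slc25a36, at -0.08 (SE 0.013, adjusted p = 1.01e-09), had the most negative ones, and that of Slc25a1 turned to 0.041 with all scores in 1 fit.

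With Slc25a4 as the regressor, 17 of the other 43 members had a positive and 12 a negative slope, beside 25% and 33.8% of all genes. Slc25a29 rose by 0.86 (SE 0.10, adjusted p = 1.8e-15) and Slc25a39 by 0.85 (SE 0.076, adjusted p = 3.31e-24) per unit of Slc25a4. Slc25a1 had a slope of -1.40 (SE 0.21, adjusted p = 7.65e-10) and Slc25a36 of -0.67 (SE 0.099, adjusted p = 1.55e-10).

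The carriers of citrate and dicarboxylates had their steepest slopes on the lipogenesis and adipocyte scores. On the lipogenesis score, built from Fasn, Acly, Scd1 and 6 other genes of fatty acid synthesis, 14 members had a positive and 11 a negative slope, beside 20% and 15.7% of all genes. Slc25a1 had a slope of 0.59 (SE 0.013, adjusted p = 6.97e-169), with the highest ratio of slope to error of all genes outside the score, and Slc25a10 of 0.30 (SE 0.012, adjusted p = 3.06e-79), or 0.18 with all scores in 1 fit. Slc25a25 (-0.09, adjusted p = 0.0291) and Slc25a34 (-0.06, adjusted p = 0.00794) had the most negative ones, and that of Slc25a25 was 0.0050 with all scores in 1 fit.

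On the adipocyte score 10 members had a positive and 10 a negative slope, beside 20.6% and 18.1% of all genes. Slc25a1 had a slope of 0.54 (SE 0.019, adjusted p = 2.9e-104) and Slc25a10 of 0.30 (SE 0.013, adjusted p = 6.35e-77). With all scores in 1 fit these were 0.19 and 0.19. The negative slopes were shallow, with Slc25a36 at -0.05 (SE 0.014, and -0.08 with all scores in 1 fit) and Slc25a15, the ornithine carrier, at -0.04 (SE 0.0084), and Slc25a4, Slc25a3, Slc25a11 and Slc25a12 all had slopes between -0.04 and -0.03. The part of adipocyte RNA in the levels of Slc25a1 and Slc25a10 was not tested beyond these fits.

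On the macrophage score 9 members had a positive and 11 a negative slope, beside 21.4% and 18.3% of all genes. Slc25a1 (0.31, SE 0.026) and Slc25a10 (0.16, SE 0.017) again led. With all scores in 1 fit Slc25a1 had 0.032 (adjusted p = 0.048) and Slc25a10 was not called (0.016, adjusted p = 0.364). Slc25a25 (-0.09, adjusted p = 0.0275) and Slc25a28 (-0.04, adjusted p = 2.19e-05) were lowest, and with all scores in 1 fit neither was called.

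Slc25a25 had the steepest slopes of all members on the clock and immediate-early scores. On the clock-output score, built from Dbp, Tef, Ciart and the Per and Nr1d genes, 6 members had a positive and 8 a negative slope, beside 11.9% and 16.1% of all genes. Slc25a25 had a slope of 0.30 (SE 0.031, adjusted p = 2.82e-17), the sixth steepest of all genes outside the score. Slc25a33, a pyrimidine nucleotide carrier, had 0.13 (SE 0.013, adjusted p = 2.79e-19). Slc25a36, its relative with the same class of substrate, had the opposite sign, at -0.12 (SE 0.012, adjusted p = 2.38e-18), as did Slc25a1 at -0.12 (SE 0.029, adjusted p = 0.000704). The promoter windows of Slc25a25 and Slc25a36 printed above both hold TGACGTCA, and their slopes on this score have opposite signs. With all scores in 1 fit the slope of Slc25a1 was 0.0095.

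On the immediate-early score, built from 14 genes such as Fos, Junb and Nr4a1, 7 members had a positive and 3 a negative slope, beside 9.53% and 8.54% of all genes. Slc25a25 (0.29, SE 0.037, adjusted p = 4.69e-12) and Slc25a33 (0.11, SE 0.016, adjusted p = 4.87e-10) led again. Slc25a16 (-0.06, SE 0.021, adjusted p = 0.0165) and Slc25a35 (-0.04, SE 0.012, adjusted p = 0.00233) had the most negative slopes. With Slc25a25 as the regressor, 3 of the other 43 members had a positive and 6 a negative slope, beside 9.42% and 11.7% of all genes. Slc25a33 led these with 0.08 (SE 0.019, adjusted p = 0.000918), ahead of Slc25a38 at 0.04 (SE 0.013, adjusted p = 0.0216, and 0.0949 with the 5 blocks as covariate), and Slc25a1 was lowest at -0.13 (SE 0.039, adjusted p = 0.00669), with Slc25a10 at -0.08 (SE 0.024, adjusted p = 0.00818).

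Slopes on the fibre scores were led by Slc25a25 and Slc25a34. On the fast-fibre score 12 members had a positive and 18 a negative slope, beside 22.1% and 30.4% of all genes. Slc25a25 had the steepest slope at 0.18 (SE 0.033, adjusted p = 3.16e-07), and Slc25a1 (-0.15, SE 0.028, adjusted p = 1.36e-06) and Slc25a34 (-0.14, SE 0.019, adjusted p = 6.29e-12) the most negative. With all scores in 1 fit these were 0.11, -0.06 and -0.04, all still called. Slc25a4 had 0.05 (SE 0.0056) and Slc25a5 -0.06 (SE 0.0082), so that both ADP/ATP carriers had opposite signs. Slc25a30 had 0.06 (SE 0.026, adjusted p = 0.036), and was not called on log2 CPM (adjusted p = 0.0682) or without the 5 libraries whose sex-linked RNA went against their label (0.0531), while with all scores in 1 fit it had 0.098 (adjusted p = 0.00655).

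On the slow-fibre score 4 members had a positive and 5 a negative slope, beside 3.91% and 2.47% of all genes. Slc25a34 (0.12, SE 0.022, adjusted p = 1.67e-06) and Slc25a22 (0.09, SE 0.021, adjusted p = 0.00132) had the steepest and Slc25a30 (-0.10, SE 0.029, adjusted p = 0.0199) and Slc25a37 (-0.04, SE 0.011, adjusted p = 0.0118) the most negative slopes. None of these 4 was called with all scores in 1 fit, where the slopes were 0.016, 0.026, -0.077 and -0.022 in the same order. The slow-fibre markers were lower in males for 9 of 9 genes, with median sums of 3842 CPM in females and 2685 CPM in males over wide ranges (656.9 to 10433 and 961.5 to 8508 CPM). With both fibre scores and the adipocyte score as covariates, the log2 sex difference of Slc25a30 was 1.22 (adjusted p = 1.09e-41, edgeR), and the part of fibre type alone was not tested.

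On the erythroid score 5 members had a positive and 3 a negative slope, beside 3.91% and 4.53% of all genes. Slc25a39 (0.06, SE 0.011, adjusted p = 0.000264) and Slc25a34 (0.08, SE 0.020, adjusted p = 0.00564) were highest among the called members, and Slc25a25 (-0.11, SE 0.035, adjusted p = 0.0245) and Slc25a40, the paralog of Slc25a39, lowest (-0.04, SE 0.013, adjusted p = 0.0322). With all scores in 1 fit 0 members were called, and the slopes of the members just named were 0.029, 0.011, -0.074 and -0.029 in the same order. The genes Hba-a1 and Slc4a1 of this list were at 0 in some libraries of both sexes.

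The level of Slc25a30 served as the regressor in a fit with sex and generation as covariates, added after the sex result was seen. In that fit, 2 of the other 43 members had a positive and 4 a negative slope, beside 9.31% and 8.42% of all genes. The positive ones were Slc25a5 (0.06, SE 0.015, adjusted p = 0.00139) and Slc25a38 (0.06, SE 0.017, adjusted p = 0.0025). Slc25a36 (-0.09, SE 0.024, adjusted p = 0.00176) and Slc25a23 (-0.08, SE 0.020, adjusted p = 0.00136) had the most negative slopes. Slc25a14, the closest relative of Slc25a30 in the family, was not called between the sexes (log2 difference 0.05, SE 0.028, adjusted p = 0.0941).

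Over the 10 scores, 40 of the 44 members were called at least once, and 4 (Slc25a2, Slc25a18, Slc25a21 and Slc25a47) never. All 4 are among the members with few counts. Slc25a5 had the most positive slopes (6 of 10 scores), and Slc25a40 and Slc25a46 the most negative ones (5 of 10 each). No share of all genes is set beside these counts, so they do not mark the family off from other genes. The respiratory-chain score alone called 23.6% of all genes with a positive and 32.2% with a negative slope.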

How the data were processed

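Both tables deposited by the authors, 1 of expected counts per gene and 1 of a score, cover 474 libraries of 1 animal each, 235 labelled female and 239 male. According to the study's methods, the authors estimated expected counts with EMASE, run by the GBRS package, against founder transcriptomes, with the mates of a pair joined and aligned as single reads. The deposited expected counts are not normalised. The deposited score is a variance-stabilised value (VST), made with DESeq2 and close to a log2 scale for abundant genes. Build GRCm38 was taken from the submitters' processing notes, and gene positions were taken as deposited. They equal GENCODE M21 in 99.5% of starts, and exon lengths came from that annotation. Versions of EMASE, GBRS and the authors' DESeq2, and any use of strand, are not given in the sources used here.

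Expected counts were rounded and tested in edgeR 4.0.16 (R 4.3.3) by the quasi-likelihood F-test with TMM scaling and filterByExpr at a minimum count of 10 over the 10 groups. Slopes on scores were fitted by limma 3.58.1 with a trended prior on the VST. Adjustment of p-values was by Benjamini-Hochberg across every tested gene, and calls were made at 0.05. DESeq2 1.42.0 served as an alternative. Scripts were tested on simulated data. The members and the gene lists were chosen with earlier results of these data known. Members were named by rule: between the sexes the 6 largest rises and 6 largest falls with 1 sign in all 5 generations plus Slc25a4, Slc25a3, Slc25a5, Slc25a12, Slc25a11, Slc25a20 and Slc25a25, between generations the called members, and for each score the 2 largest positive and negative slopes. Other members were named after their values were seen. In addition, 1 member is counted in the totals but not reported or drawn here. Blocks were defined as runs of library numbers without a gap of more than 3, which gave 2 stretches, and a division into 5 blocks of at most 96 numbers was added after the data were seen. P-values are over animals. Wave, a further covariate of the study, is not in the labels and was not fitted. Figures used matplotlib 3.10.9. Alternatives were other scalings, filters and tools, added covariates, and leaving out the 5 libraries named in the results.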

Additional observations from a re-analysis of the deposited data

How the results depend on the processing

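Counts of called members and of listed genes were within 1.5 times those reported in all but 11 comparisons with an alternative setting, as follows. With all 10 scores in 1 fit, the called members fell to 1 on the slow-fibre score, 10 on the adipocyte, 0 on the erythroid, 10 on the macrophage, 6 on the immediate-early, 6 on the clock-output and 15 on the lipogenesis score. The fit holds related scores, so a slope there is what remains beside the other 9. No shares of all genes are set beside the counts of these alternative settings, so a drop is not shown to be particular to the members. With the 5 blocks as covariate 4 members were called on the erythroid score. Scaling by total count alone left 1 carrier under another symbol and 4 other mitochondrial transporters higher in males, and the fibre and adipocyte scores as covariates left 1 carrier under another symbol lower. Of single values, 21 lost their call, and 10 relative spreads moved, those of members with few counts and of Slc25a25 on the VST. Of the 40 named slopes on scores, 24 moved by more than 1.5 times with all scores in 1 fit, several still called, and 0 did so under the other settings. Signs turned for 4 of these slopes, all with all scores in 1 fit: Slc25a1 on the respiratory-chain score (0.041) and on the clock-output score (0.0095), and Slc25a25 on the macrophage (0.033) and lipogenesis scores (0.0050). The cause was not tested. No paired analysis was possible because no animal number occurs in more than 1 group. Members at 0 in some libraries are limited by depth.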
